A study of Mus musculus with 12 samples.

Results

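The genes described here carry iron across the absorptive cells of the gut, store it in them or tell them how much to take up. They are Cybrd1, Slc11a2, Slc40a1, Heph, Fth1, Ftl1, Tfrc and Epas1, chosen by symbol, and all 8 were found among the 14244 gene rows of the table. Poly(A) RNA of gut epithelial cells was sequenced from 12 mice, one library a mouse. The groups were 5 WT mice and 7 Chd8L+/- mice, which carry 1 disrupted copy of Chd8L, the large isoform of the chromatin remodeller Chd8, in every tissue. All were C57BL/6 male littermates killed at 8 weeks of age, and the labels name no other allele or treatment. Cells were released from the intestine by chelation and shaking, and the stretch of gut taken from each mouse is not given in the sources used here, so each library is a bulk mixture of crypt, villus and any other cells that came off. In such a bulk sample, fewer cells of a type and less RNA per cell cannot be told apart.

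In the absorptive enterocyte, ferric iron at the lumen is reduced by Cybrd1 and carried in by Slc11a2 (DMT1). It is stored in ferritin shells built from Fth1 and Ftl1 chains, or passed to the blood by Slc40a1 (ferroportin) with the help of the ferroxidase Heph. Dividing crypt cells take up transferrin-bound iron through Tfrc, and Epas1 (HIF-2alpha) is the oxygen- and iron-sensitive transcription factor known for raising Cybrd1, Slc11a2 and Slc40a1 in iron-poor duodenum. Iron regulatory proteins bind hairpins in several of these mRNAs. In the 5′ UTR such a hairpin blocks translation in iron-poor cells, and in the 3′ UTR it protects the mRNA from decay.

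The stretches of both ferritin genes, Slc40a1 and Tfrc that match a pattern of these hairpins are shown. The pattern was modelled on the known hairpins, so matches in genes known to carry them are not an independent result. UTRs of GENCODE M21 basic transcripts (mouse GRCm38, mm10) were searched on the transcript strand for a C, 5 bases of any kind, CAGTGN and 5 bases able to pair with the first 5, G to T pairs included. A match was found for 4 of the 8 genes, in the 5′ UTR of 3 and the 3′ UTR of 1. Of 21875 genes searched, counted whether or not a UTR was annotated, 28 (0.128%) held a match in a 5′ UTR and 127 (0.581%) in a 3′ UTR. These shares describe how rare the pattern is and are no test of the 8 genes. The capitals mark the bulged C and the loop. The 5′ UTR matches lay at chr19:9982732-9982760 (plus strand) in Fth1, chr7:45459779-45459807 (minus strand) in Ftl1 and chr1:45925465-45925493 (minus strand) in Slc40a1.
Fth1 5′ UTR: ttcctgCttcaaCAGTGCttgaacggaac
Ftl1 5′ UTR: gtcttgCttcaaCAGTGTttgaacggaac
Slc40a1 5′ UTR: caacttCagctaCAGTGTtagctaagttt
Tfrc held 4 matches in its 3′ UTR, all on the plus strand, at chr16:32631219-32631247, chr16:32631598-32631626, chr16:32631663-32631691 and chr16:32631710-32631738, in the order printed.
Tfrc 3′ UTR site 1: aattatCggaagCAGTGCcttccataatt
Tfrc 3′ UTR site 2: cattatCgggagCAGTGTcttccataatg
Tfrc 3′ UTR site 3: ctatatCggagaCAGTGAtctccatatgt
Tfrc 3′ UTR site 4: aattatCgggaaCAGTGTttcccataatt
A match to these letters is a description and not a measured site, and nothing follows for the 4 genes without one.

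Recovered totals were 15691662 to 20761315 reads a library. Values below are normalized counts, the reads of a gene divided by a size factor of the library. WT replicate 2 stood apart from its group. On the first principal component of all genes tested (39.7% of the variance) it lay at 41.0, while the other WT libraries lay between -67.5 and -26.2 and the Chd8L+/- libraries between 0.26 and 42.7. Its summed proliferation markers (14130) were the highest of the WT libraries, and its summed enterocyte markers (350530) the lowest. Epithelial markers summed to between 134085 and 263869 normalized counts in every library, stromal markers to between 20.4 and 2029, and colon markers (7128 to 31540) were present in all 12 beside markers of the proximal and distal small intestine. Chd8 as a whole gene was higher, not lower, in Chd8L+/- libraries (823 to 1050 in WT and 1084 to 1483 in Chd8L+/-). Its log2 difference was 0.44 with SE 0.10 (limma adjusted p = 0.121, exact permutation p = 0.00126, unadjusted). That value sums exons inside and outside the disrupted part, so it does not check the genotype labels. By real-time PCR the authors found less of the deleted exons and more of the first exon in Chd8L+/- cells.

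With all 12 libraries, none of the 8 iron genes differed between genotypes at an adjusted p of 0.05 or less in limma, where 3 of 12808 tested genes (0.0234%) did. At an unadjusted p of 0.05 or less there was 1 of 8, Ftl1, against 3110 of all genes (24.3%). Chd8L+/- values were on average lower for 5 of the 8 and higher for 3, with a median log2 difference of -0.13, beside 0.01 over all genes tested. Leaving out WT replicate 2 brought 2 of 8 past the adjusted threshold, Tfrc higher and Ftl1 lower. That fit called 3533 genes (27.6%), so the share of iron genes called was near that of all genes. No other single library left out gave more than 8 calls. WT replicate 2 lay among the Chd8L+/- libraries on the first principal component, so leaving it out favours a difference by construction. It was singled out from these same values, so fits without it are no independent support for any gene. On the recovered reads, edgeR called 0 of the 8 (0.039% of all genes) and DESeq2 called 0 (6.44%), while DESeq2 without WT replicate 2 called the same 2 (28.9%). Nothing in the labels says that the numbered mice of the groups are matched, and p-values measure the spread between these libraries.

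**Figure D1:**
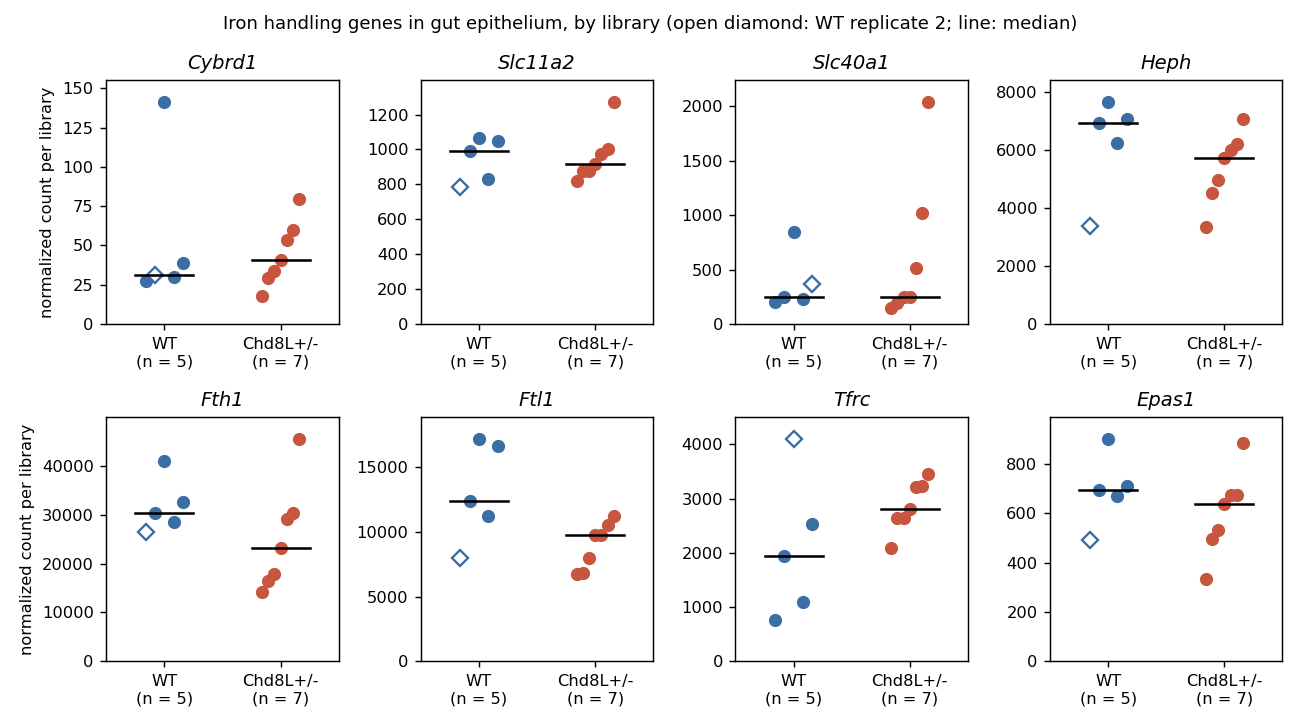
Normalized count of each gene (y axis, linear from 0) in every library, with 5 WT libraries in blue and 7 Chd8L+/- libraries in red. The line is the group median and the open diamond is WT replicate 2. Only Ftl1 has all 7 Chd8L+/- libraries below the WT median, and only Tfrc has all 7 above it, and WT replicate 2 lies among or beyond the Chd8L+/- libraries in both.

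The 2 genes of luminal uptake gave no difference between genotypes past the threshold, and they varied to unlike degrees between mice. Cybrd1 (chr2:71117923-71142926, plus strand), the ferrireductase of the duodenal brush border, stood at 141, 31.5, 27.2, 38.7 and 30.1 normalized counts in WT replicates 1 to 5. The Chd8L+/- values ran from 17.7 through a median of 41.0 to 79.6. All but 1 of the Chd8L+/- libraries lay within the WT range, which WT replicate 1 set alone at its upper end. The means were 53.8 ± 49.1 (SD, n = 5) and 44.9 ± 20.9 (SD, n = 7), the log2 difference was -0.07 with SE 0.43, and the limma adjusted p was 0.936 (exact permutation p = 0.895, two-sided). It rested on few reads, 19 to 159 a library. Its direction turned to 0.36 without WT replicate 1.

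Slc11a2 (chr15:100387898-100425072, minus strand), the proton-coupled transporter that brings ferrous iron into the cell, was the steadiest of the 8. WT replicates 1 to 5 held 1066, 787, 993, 830 and 1047 normalized counts, and the Chd8L+/- libraries held 819 to 1272 with a median of 915. The groups overlapped almost wholly. The log2 difference was 0.02 with SE 0.13 and a 95% interval of -0.25 to 0.30 (limma adjusted p = 0.924, exact permutation p = 0.847), and -0.04 without WT replicate 2. Its log2 SD within groups was 0.21, smaller than that of all but 17.3% of tested genes. Exons of Gm5475 overlap it on the other strand, and how strand was used in counting is not given in the sources used here, but Gm5475 held only 2.73 to 12.2 normalized counts.

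The basolateral pair, Slc40a1 and Heph, likewise gave no call. Slc40a1 (chr1:45908068-45926523, minus strand), the only known iron exporter, varied most of the 8 between libraries. WT replicates 1 to 5 held 846, 366, 246, 204 and 229 normalized counts, and the Chd8L+/- libraries ran from 146 through a median of 252 to 2037. Of the 12 libraries, 9 of both genotypes lay between 146 and 515, and the other 3 stood above them, namely Chd8L+/- replicates 4 (2037) and 5 (1020) and WT replicate 1 (846). Its log2 SD within groups was 1.20, exceeded by few genes, since 96.9% of tested genes had a smaller one. The log2 difference of 0.33 (SE 0.60, limma adjusted p = 0.757, exact permutation p = 0.646) became -0.05 without Chd8L+/- replicate 4, and was 0.75 in edgeR, 0.74 in DESeq2 and 0.80 with a block for the letter of the library name, none of them past the threshold. Macrophages also use Slc40a1 to return iron to the blood, and over the 12 libraries its correlation with the summed macrophage markers was r = 0.26 (permutation, adjusted p = 0.759) and rho = 0.17 (permutation, adjusted p = 0.837).

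Heph (chrX:96455359-96574485, plus strand), the membrane-bound copper ferroxidase that works beside ferroportin, was abundant at 6231, 3373, 7644, 6907 and 7068 normalized counts in WT replicates 1 to 5. In Chd8L+/- libraries it ran from 3326 through a median of 5710 to 7064. WT replicate 2 lay as low as the lowest Chd8L+/- library, and the other 4 WT libraries lay above 6 of the 7 Chd8L+/- libraries. The means were 6244 ± 1682 (SD, n = 5) and 5394 ± 1233 (SD, n = 7). With all libraries the log2 difference was -0.19 with SE 0.22 (limma adjusted p = 0.615, exact permutation p = 0.431), and without WT replicate 2 it was -0.40 with SE 0.18 (limma adjusted p = 0.115). After quantile normalization it was 0.06, on the other side of 0. Hsf3 lies on the other strand with overlapping exons, and no value for it was used.

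The ferritin chains were the most abundant of the 8, and the light chain gave the smallest p of any. Fth1 (chr19:9980598-9985098, plus strand), the heavy chain with the ferroxidase site, held 41036, 26540, 28432, 30232 and 32549 normalized counts in WT replicates 1 to 5. Its Chd8L+/- values ran from 14141 through 23133 to 45381. They spread wider than WT on both sides, with 4 libraries below and 1 above the WT range. The log2 difference was -0.42 with SE 0.28 (limma adjusted p = 0.356, exact permutation p = 0.165), -0.48 without WT replicate 2 and -0.16 after quantile normalization.

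For Ftl1 (chr7:45457944-45459884, minus strand), the light chain that favours mineral formation in the shell, WT replicates 1 to 5 held 11232, 7989, 16623, 17122 and 12370 normalized counts. The Chd8L+/- values were 6706, 9752 and 11219 at the lowest, median and highest. Every one of the 7 Chd8L+/- values was under the WT median, and under every WT library but replicate 2, where the nearest pair was 11219 against 11232. Means were 13067 ± 3832 (SD, n = 5) and 8965 ± 1800 (SD, n = 7). With all libraries the log2 difference was -0.52 with SE 0.21 and a 95% interval of -0.97 to -0.06, and it did not pass (limma adjusted p = 0.164, unadjusted p = 0.0283). Taken alone, the exact permutation test gave p = 0.0379, unadjusted. Without WT replicate 2, Ftl1 fell by 0.68 on the log2 scale with SE 0.19 (limma adjusted p = 0.019, where 27.6% of genes were called). Quantile normalization left a log2 difference of -0.22.

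The level of Ftl1 is uncertain, since reads of near-identical copies could be counted on it or taken from it, which was not tested. GENCODE M21 holds Ftl1-ps1, Ftl1-ps2 and Ftl2-ps, none of which is a row of the table, and Gm22133 and Gm10252 overlap its exons. One row, LOC100862446, followed Ftl1 at r = 0.9987 over the 12 libraries with 7768 to 20103 normalized counts. Of the 2 rows together, Ftl1 took 46.0 to 47.5% in every library. The reference tables at hand do not name that row, so whether it counts a copy of Ftl1 was not tested. Summing both rows, an alternative chosen after the values were seen, gave a log2 difference of -0.53 (exact permutation p = 0.0391).

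The balance of the 2 ferritin chains gave no difference between genotypes larger than the spread of the libraries. The ratio of Fth1 to Ftl1 was 3.65, 3.32, 1.71, 1.77 and 2.63 in WT replicates 1 to 5 and ran from 1.84 through 2.45 to 4.32 in Chd8L+/- libraries. On the log2 scale the ratio averaged 1.32 ± 0.51 (SD, n = 5) for WT, against 1.41 ± 0.47 (SD, n = 7) for the Chd8L+/- mice, a difference of 0.09 (exact permutation p = 0.732, two-sided, with 0.00126 the smallest p that 5 against 7 allows). Both groups spanned much the same range.

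Tfrc (chr16:32608920-32632794, plus strand), the transferrin receptor that feeds iron to dividing cells, had the largest fitted difference of the 8, higher in Chd8L+/- libraries. WT replicates 1 to 5 held 1935, 4093, 1101, 756 and 2533 normalized counts. The Chd8L+/- libraries were close to one another, from 2099 through a median of 2818 to 3450. WT replicate 2 was the highest of all 12 libraries, and 6 of the 7 Chd8L+/- libraries exceeded the other 4 WT libraries. Means were 2084 ± 1322 (SD, n = 5) and 2870 ± 464 (SD, n = 7). The log2 difference was 0.69 with SE 0.33 and a 95% interval of -0.01 to 1.39 (limma adjusted p = 0.210, unadjusted p = 0.0521, exact permutation p = 0.0922). Without WT replicate 2, Tfrc rose by 0.996 on the log2 scale with SE 0.27 (limma adjusted p = 0.0171, exact permutation p = 0.00606), again beside 27.6% of all genes. Summed proliferation markers moved with it, from 3147 to 14130 in WT and 7920 to 14701 in Chd8L+/- libraries, and all 10 of those markers were on average higher in Chd8L+/- (9 at an unadjusted limma p of 0.05 or less, beside 24.3% of all genes, median log2 difference 1.01). Their part in the Tfrc difference was not tested.

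Epas1 (chr17:86753700-86833410, plus strand) held 900, 494, 670, 712 and 693 normalized counts in WT replicates 1 to 5. Chd8L+/- libraries ran from 332 through 637 to 886. All but 1 of them lay within the WT range, but WT replicate 2 set its lower end alone. Of the Chd8L+/- libraries, 4 lay below every other WT library. The log2 difference was -0.23 with SE 0.21 (limma adjusted p = 0.522, exact permutation p = 0.347), and -0.34 without WT replicate 2 (limma adjusted p = 0.247).

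**Figure D2:**
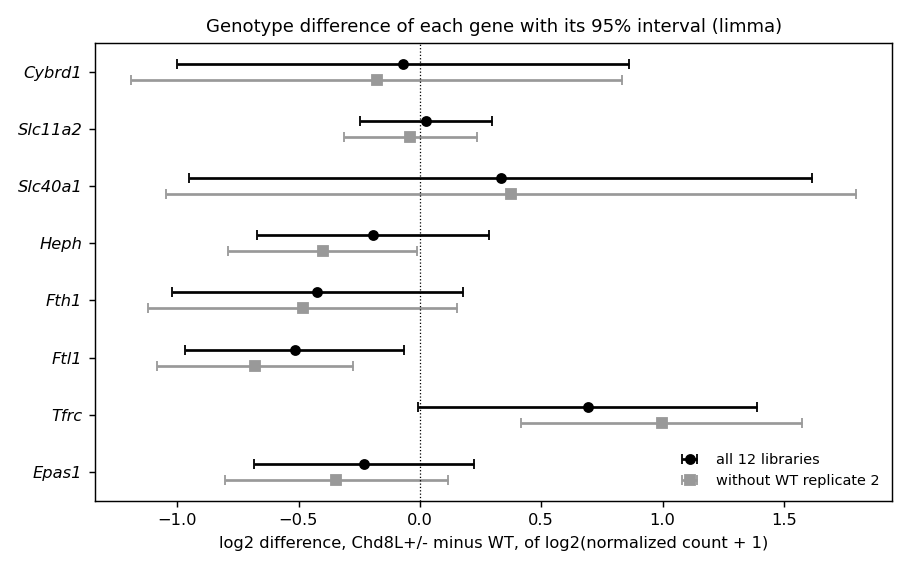
Log2 difference of each gene (x axis, Chd8L+/- minus WT, of log2 of the normalized count plus 1) with its 95% interval from limma, in black for all 12 libraries and in grey without WT replicate 2. With all libraries only the Ftl1 interval (-0.97 to -0.06) lies wholly to one side of 0, and without WT replicate 2 those of Tfrc, Ftl1 and Heph do.

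Per kilobase of exon, the ferritin chains stood far above the rest in the WT mean. Ftl1 held 9752 ± 2860 (SD, n = 5) and Fth1 9155 ± 1626 normalized counts per kb, with Ftl1 the higher in 6 of 12 libraries. That order rests on the divisors, 1340 bases of exon for Ftl1 and 3469 for Fth1. Before division Fth1 held the higher count in every library, at 1.71 to 3.65 times Ftl1 in WT and 1.84 to 4.32 times in Chd8L+/-. The row LOC100862446 is not counted with Ftl1 here. Heph followed at 815 ± 220 per kb, below Fth1 in all 12 libraries. Then came Tfrc (337 ± 214), below Heph in 10 of 12, Slc11a2 (149 ± 20.1), below Tfrc in 11 of 12, and Epas1 (124 ± 25.8), below Slc11a2 in 11 of 12. Slc40a1 (42.1 ± 29.9) lay below Epas1 in 10 of 12 libraries. Cybrd1 came last at 10.1 ± 9.20 per kb, below Slc40a1 in all 12. Each of these levels divides by the length of all annotated exons joined, which overstates the length of the mRNA where long exons are little used.

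**Figure D3:**
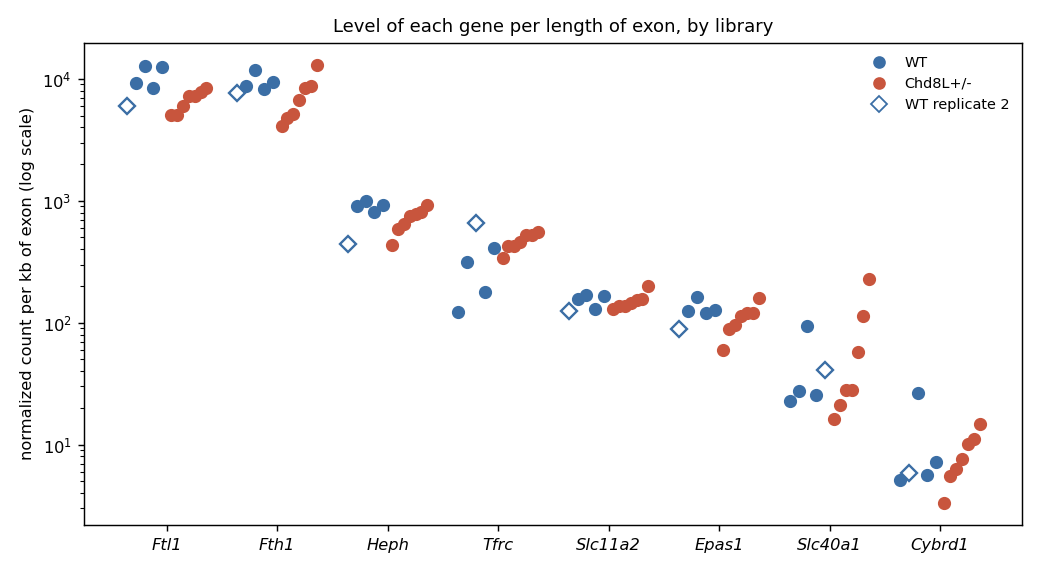
Normalized count per kb of exon (y axis, log scale) of each gene in every library, in the order of the WT means, with WT in blue and Chd8L+/- in red. The ferritin chains, at 4077 to 13082 per kb, do not overlap Heph (434 to 998), while the ranges of all other neighbours in the order overlap.

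Among the 8 genes, 28 pairs were correlated over the 12 libraries on the log2 scale. The tightest pair was Ftl1 with Tfrc, storage against uptake, at r = -0.90 (permutation p = 5e-05, adjusted over the pairs 0.0014) and rho = -0.91 (permutation p = 0.00016, adjusted 0.00448). With the genotype means subtracted r was -0.87 (permutation, adjusted p = 0.00336), so the relation was present between mice of the same genotype. Fth1 with Epas1 was the other pair past the threshold, at r = 0.81 (permutation, adjusted p = 0.0167), rho = 0.80 (permutation, adjusted p = 0.0326) and r = 0.79 with genotype means subtracted. Without the 2 libraries farthest from the median of the first gene, no pair passed the adjusted threshold. By then Ftl1 with Tfrc stood at r = -0.80 (permutation p = 0.00587, adjusted 0.125) without WT replicates 3 and 4, and Fth1 with Epas1 at r = 0.61 without Chd8L+/- replicates 3 and 5. The calls were thus lost without those libraries. Leaving out the farthest libraries also narrows the range, which weakens any linear relation, so the loss cannot tell a few outlying libraries from a general trend.

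Both genes of the tightest pair also followed the summed proliferation markers, Tfrc at r = 0.88 (permutation, adjusted over 88 relations p = 0.011) and Ftl1 at r = -0.89 (permutation, adjusted p = 0.00352). In ranks, rho was 0.85 (permutation, adjusted p = 0.0165) and -0.84 (permutation, adjusted p = 0.017). With genotype means subtracted the values were 0.85 and -0.82. Neither passed without the 2 libraries farthest in the marker sum, WT replicates 3 and 4, where r was 0.65 for Tfrc and -0.71 for Ftl1. Summed macrophage markers went the same way, at r = 0.77 with Tfrc (rho = 0.78, permutation, adjusted p = 0.0299 and 0.0358) and -0.83 with Ftl1 (rho = -0.81, permutation, adjusted p = 0.0192 and 0.0239). Proximal small intestine markers followed Ftl1 at r = 0.81 (rho = 0.86, permutation, adjusted p = 0.0192 and 0.0165), and epithelial markers went against Tfrc at r = -0.76 (rho = -0.83, permutation, adjusted p = 0.0192 and 0.0186). With genotype means subtracted, macrophage markers with Ftl1 still passed (permutation, adjusted p = 0.0339), while macrophage with Tfrc (adjusted p = 0.119), proximal markers with Ftl1 (adjusted p = 0.107) and epithelial markers with Tfrc (adjusted p = 0.0761) did not. How far the mix of crypt and villus cells sets the relation between Ftl1 and Tfrc was not tested.

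**Figure D4:**
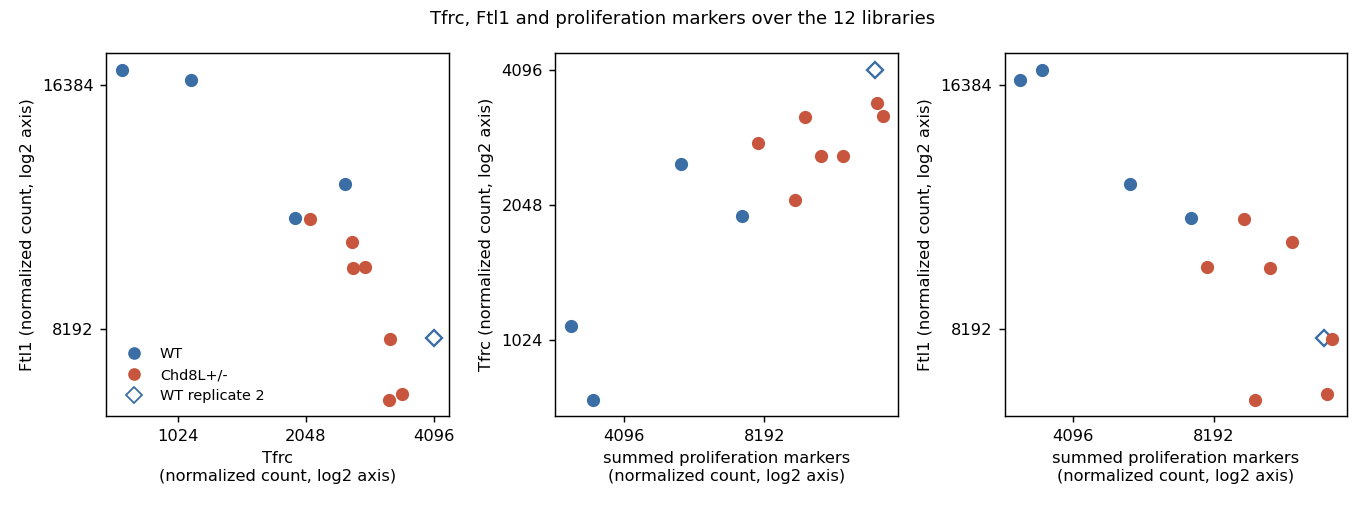
Each point is a library (blue WT, red Chd8L+/-, open diamond WT replicate 2), and all axes are normalized counts on log2 scales. The panels plot Ftl1 against Tfrc (r = -0.90), Tfrc against the summed proliferation markers (r = 0.88) and Ftl1 against the same sum (r = -0.89), and in each WT replicates 3 and 4 form the far end from most Chd8L+/- libraries and WT replicate 2.

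Heph followed the enterocyte lists most closely. Its r was 0.93 with the summed enterocyte markers and 0.91 with the summed epithelial markers (permutation, adjusted p = 0.00132 for both), with rho of 0.94 and 0.88 (permutation, adjusted p = 0.0044 and 0.0165). With markers of the distal small intestine r was 0.79 (permutation, adjusted p = 0.0299), rho 0.58 (permutation, adjusted p = 0.25) and, without Chd8L+/- replicate 6 and WT replicate 2, r was 0.31. Genotype means subtracted, the first 2 were 0.93 and 0.91. Without the same 2 libraries they were 0.85 and 0.85, past an unadjusted but not the adjusted threshold. With markers of the proximal small intestine r was 0.43 (permutation, adjusted p = 0.488) and rho 0.72 (permutation, adjusted p = 0.0823). Without Chd8L+/- replicates 5 and 3 that r was 0.73 (permutation, adjusted p = 0.185), so Heph was not tied to the distal list alone. Against the summed proliferation markers Heph went at r = -0.75 (permutation, adjusted p = 0.0568), rho = -0.84 (permutation, adjusted p = 0.017) and, with genotype means subtracted, r = -0.80 (permutation, adjusted p = 0.0157). Slc11a2 and Slc40a1 passed with no other gene of the 8 and with no marker list, and Cybrd1 only with Epas1 once genotype means were subtracted. In all, 9 of 88 relations with marker lists passed, 7 with genotype means subtracted and 0 without the 2 farthest libraries.

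The high values of Cybrd1, Fth1 and Epas1 fell in the same pair of mice, one of each genotype, a pattern noted after the values were seen. WT replicate 1 and Chd8L+/- replicate 4 ranked 1 and 2 for Cybrd1 (141 and 79.6), 2 and 1 for Fth1 (41036 and 45381) and 1 and 2 for Epas1 (900 and 886). In Slc40a1 they ranked 3 and 1. Cybrd1 correlated with Epas1 at r = 0.75 (permutation, adjusted p = 0.057, rho = 0.56, adjusted p = 0.194), at 0.77 with genotype means subtracted (permutation, adjusted p = 0.0371) and at 0.58 without these 2 libraries. Both carried far more Akp3, an intestinal alkaline phosphatase gene, than other mice, at 14225 and 38533 normalized counts against 18.7 to 1537 elsewhere. Akp3 was picked because it followed Cybrd1 closely over these same libraries (r = 0.78), so its high values in these mice are not independent of that choice.

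**Figure D5:**
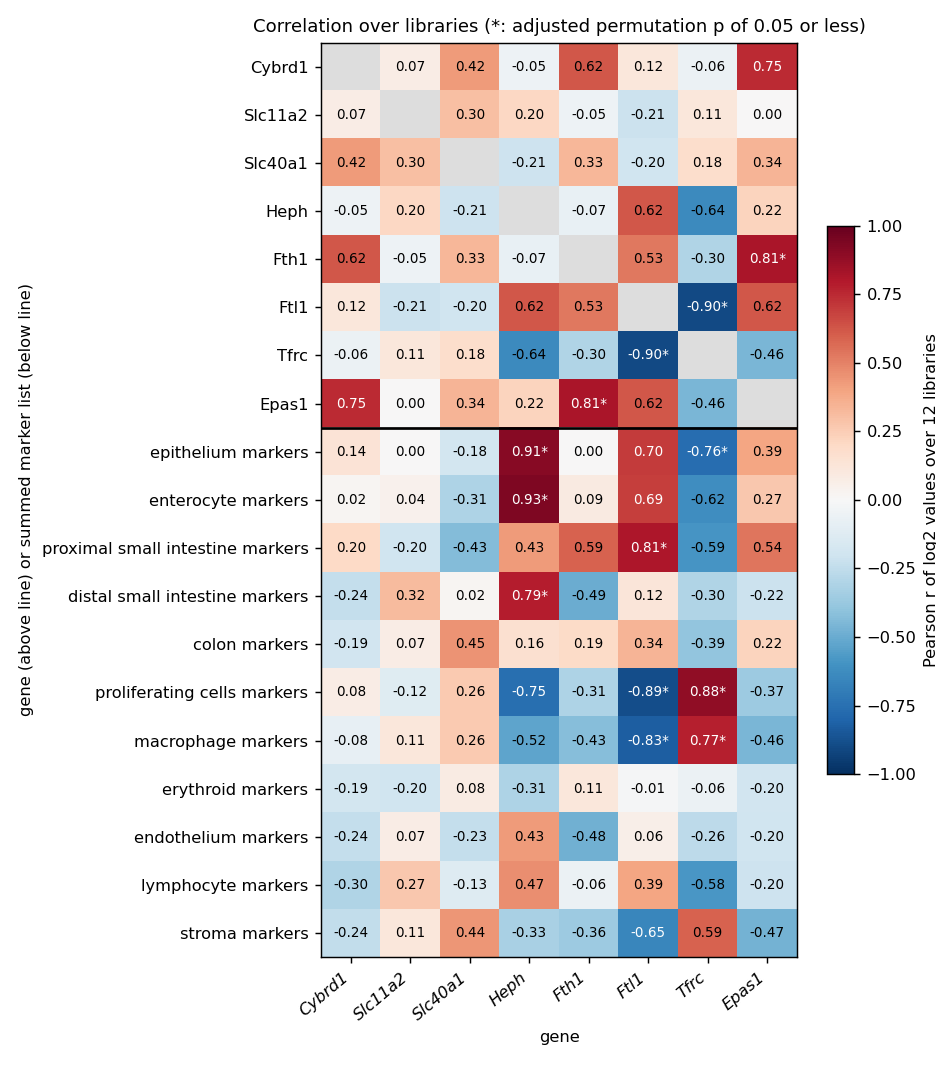
Pearson r over the 12 libraries between the genes (above the line) and between each gene and the summed level of each marker list (below it), from blue at -1 to red at 1. An asterisk marks an adjusted permutation p of 0.05 or less, reached by 2 of 28 gene pairs and 9 of 88 relations with marker lists.

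Of 9486 other genes with a mean of at least 100 normalized counts, the 2 whose log2 values followed each gene most closely were as follows, given as a description with no test. For Tfrc they were Wdhd1, a DNA replication factor (r = 0.98), and Lhpp (0.97). Ftl1 had, after LOC100862446, Acsf2 (0.98), whose values ran from 878 to 8032. Heph was followed by Mtmr11 and the chloride channel gene Clcn2 (both 0.98), and Fth1 by Otop3 (0.94) and Ap1s3 (0.93). Epas1 had the alkaline phosphatase gene Alpi (0.88) and Slc46a1, which carries folate and has been described as a haem carrier (0.85). Likeness was weaker for the rest, with Rnf43 (0.85) and Akp3 (0.78) for Cybrd1, Cpne1 (0.85) and Ttll3 (0.84) for Slc11a2, and Nr2f2 (0.81) and Arid4a (0.77) for Slc40a1.

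Around the 8 genes, 66 further genes of iron and haem handling and of the hypoxia response were listed, of which 59 were in the table and 53 were tested. None passed the limma threshold with all libraries. At an unadjusted p of 0.05 or less there were 16 (30.2%, beside 24.3% of all genes), 13 lower and 3 higher in Chd8L+/-, while over all genes 1511 were lower and 1599 higher. Without WT replicate 2, 15 passed the threshold lower and 5 higher (37.7%, beside 27.6% of all genes). DESeq2 on all libraries called 8 of them, in a fit that called 6.44% of all genes.

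Of 6 tested surface uptake genes, 4 were on average above WT and 2 below, with a median log2 difference of 0.58. The summed level of the 10 listed genes in the table went the other way, at 4824 to 5523 normalized counts in WT and 4265 to 4923 in Chd8L+/-. Steap2, a metalloreductase that acts on iron released from transferrin, held 112, 232, 35.3, 43.6 and 70.2 normalized counts in WT replicates 1 to 5 and 143 to 214, median 211, in Chd8L+/- libraries. All 7 Chd8L+/- libraries lay above the WT libraries other than replicate 2. Its log2 difference was 1.22 with SE 0.37 (limma adjusted p = 0.121) and 1.61 without WT replicate 2 (limma adjusted p = 0.00313). Snx3, which recycles the transferrin receptor to the cell surface, went the other way, from 2777, 1887, 3174, 3354 and 2913 in WT to 1403 to 2327, median 2027, in Chd8L+/- (log2 difference -0.52, limma adjusted p = 0.121, and -0.66 without WT replicate 2, adjusted p = 0.00601). Tf and Tfr2 were not among the rows.

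The sensors of iron and oxygen were lower in 7 of 10 tested genes, 3 of them with an unadjusted p at or under 0.05 (beside 24.3% of all genes), and the median log2 difference of the list was -0.22. Egln3, a prolyl hydroxylase that marks HIF for decay and is itself induced by HIF, held 5388, 967, 10664, 11564 and 7378 normalized counts in WT replicates 1 to 5. Chd8L+/- libraries ran from 679 through 1542 to 4683, all below the WT libraries other than replicate 2. The log2 difference was -1.62 with SE 0.61 (limma adjusted p = 0.145), and without WT replicate 2 Egln3 fell by 2.24 (limma adjusted p = 0.0061). Aco1, iron regulatory protein 1, was the gene of smallest p among the 3 higher ones, at 0.15 (limma adjusted p = 0.616). Egln3 and Epas1 are both read here only as RNA, and HIF-2alpha is set mainly by protein decay.

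Hypoxia-responsive genes were lower in 9 of 11, 5 of them with an unadjusted p at or under 0.05 (beside 24.3% of all genes), and the median log2 difference of the list was -0.60. P4ha1, a collagen prolyl hydroxylase and HIF target, held 180, 81.2, 352, 577 and 288 normalized counts in WT and 38.3 to 104, median 73.3, in Chd8L+/-. Its log2 difference was -1.74 with SE 0.39 (limma adjusted p = 0.121, unadjusted p = 0.00057), and without WT replicate 2 it fell by 2.14 (limma adjusted p = 0.00266). Car9 was the higher gene of smallest p, at 0.20 (limma adjusted p = 0.497). Without WT replicate 2, 6 of the 11 passed the adjusted threshold lower and 0 higher, beside 27.6% of all genes called, and the median log2 difference was -1.01. Summed proliferation and enterocyte markers moved with WT replicate 2 as given above, and their part in these differences was not tested.

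In haem handling, 9 of 12 genes were lower, 3 with an unadjusted p at or under 0.05, a share near the 24.3% of all genes, and the median log2 difference of the list was -0.09. Hmox2, the constitutive haem oxygenase, held 562, 522, 668, 632 and 611 normalized counts in WT and 325 to 539, median 448, in Chd8L+/- (log2 difference -0.43 with SE 0.14, limma adjusted p = 0.126, and -0.48 without WT replicate 2, adjusted p = 0.031). Flvcr1, a haem exporter, was the higher gene of smallest p at 0.44 (limma adjusted p = 0.263). The mitochondrial and iron-sulfur genes divided evenly, 4 lower and 4 higher. Isca1, an iron-sulfur assembly protein, held 1291, 1260, 1501, 1455 and 1462 normalized counts in WT and 866 to 1402, median 1023, in Chd8L+/- (log2 difference -0.42, limma adjusted p = 0.121). Without WT replicate 2, Isca1 fell by 0.45 (limma adjusted p = 0.0218).

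The chaperone and ferritin turnover list and the export and hepcidin list held no gene at an unadjusted p of 0.05 or less. Ncoa4, the receptor that delivers ferritin to the lysosome, had a log2 difference of -0.44 (limma adjusted p = 0.314) and the iron chaperone gene Pcbp2 one of 0.10 (limma adjusted p = 0.644). Mon1a, which helps bring ferroportin to the membrane, stood at -0.16 (limma adjusted p = 0.511), and Hfe at 0.54 (limma adjusted p = 0.307). Hamp, the hepcidin gene, was not among the rows.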

How the data were processed

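The authors sequenced poly(A) libraries in single-end runs of 75 bases, aligned the reads to mm10 with Tophat2 and analysed them with DESeq2. The deposited signal per gene and library is a read count over a size factor for that library. The counter, the annotation and the handling of strand are not given in the sources used here. Reads were recovered from the steps between values (100% whole within 0.01), for WT replicates 3 and 4, where 1 read was worth 1.01 and 0.992, without a general check of such steps. Of 14244 rows, 21 carry date-like names and 2 repeat a name. All 12 columns were matched by library name, and 0 belonged to other samples.

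Genotypes were compared with limma 3.58.1 (R 4.3.3, trend) on log2(value + 1), fitted to the 12808 genes whose mean reached 10, Benjamini-Hochberg adjusted over all of them, at an adjusted p of 0.05. A fold change on this scale understates the change of low genes. Each gene and the ferritin ratio were also compared with two-sided exact permutation tests over libraries. Correlations used 100000 permutations. edgeR 4.0.16 and DESeq2 1.42.0 were run on recovered reads. Scripts were tested on simulated data. All 8 genes were named, in each other iron or hypoxia list the gene of smallest p in each direction (and any past the threshold), for each of the 8 the 2 most similar genes, and Chd8. Not every gene this rule names is reported here. Cell lists were epithelial, enterocyte, proximal, distal, colon, proliferation, macrophage, erythroid, endothelial, lymphocyte and stromal markers. Genes and lists were chosen with earlier results of these data known. Alternatives were other pseudocounts, filters, scalings, tools and blocks, and each library left out. Positions and exon lengths are from GENCODE M21.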

Additional observations from a re-analysis of the deposited data

Results flagged for a closer look

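Values were examined for a library far from the rest of its genotype, for the 8 genes and the ferritin ratio, 18 groups in all, of which chance alone flags about 1 in 20, or 0.9. There were 2. Cybrd1 in WT replicate 1 lay at 7.15 on the log2 scale (141 normalized counts), while the other WT libraries lay between 4.82 and 5.31. The gap was 0.789 of the group's range, against a critical value of 0.71. Heph in WT replicate 2 lay at 11.7 on the log2 scale (3373 normalized counts), while the other WT libraries lay between 12.6 and 12.9, a gap of 0.75 of the range.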

How the results depend on the processing

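With any single library left out, the count of iron genes past the threshold was 0 to 2, that of all genes 0 to 3533 and that of the listed pathway genes 0 to 20, the upper ends all without WT replicate 2. The log2 difference then ran from -0.23 to 0.36 for Cybrd1, -0.045 to 0.070 for Slc11a2, -0.053 to 0.68 for Slc40a1, -0.40 to -0.08 for Heph, -0.58 to -0.30 for Fth1, -0.68 to -0.40 for Ftl1, 0.39 to 0.996 for Tfrc and -0.34 to -0.09 for Epas1, and the ferritin ratio from -0.043 to 0.23. Cybrd1 turned positive without WT replicate 1 or Chd8L+/- replicate 2 or 3, and at 0.20 without WT replicate 1 and Chd8L+/- replicate 4 together (0 genes called), an alternative added after seeing the data. Slc11a2 turned negative without WT replicate 2 or 4 or Chd8L+/- replicate 5, Slc40a1 without Chd8L+/- replicate 4, and the ferritin ratio without WT replicate 3 or 4 or Chd8L+/- replicate 4. Under DESeq2 without WT replicate 2, Slc11a2 stood at -0.034, Ftl1 at -0.68 (adjusted p = 0.00252) and Tfrc at 0.86 (adjusted p = 0.00934), with 2 iron genes, 22 pathway genes and 4112 genes called. With all libraries, DESeq2 called 811 genes (8 pathway genes), edgeR 5, a block for the letter of the library name 451 (5 pathway genes) and the replicate block 0. Deviations of same-numbered mice from their group means correlated at r from -0.34 to 0.19. Low values over so few pairs cannot show that the mice are unmatched, and the labels do not say. Quantile normalization put Heph at 0.063. The exact permutation test of Ftl1 gave p = 0.0379 for -0.52, and -0.53 with LOC100862446 added. Correlations past the threshold fell to 0 of 28 and 0 of 88 without the 2 farthest libraries. Fth1, Ftl1, Tfrc and Epas1 kept their sign in all alternatives run. Causes were not tested. Depth limits Cybrd1 most, at 19 to 159 reads.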

Other observations

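Markers of other cell types differed in their levels between the genotypes to unequal degrees, and none of these lists held a gene past the limma threshold with all libraries. Counts given as unadjusted stand beside 24.3% of all genes tested, and several are near or below that share. Stromal markers were higher in Chd8L+/- for all 6 tested genes (4 with an unadjusted p at or under 0.05, median log2 difference 2.04) and summed to 20.4 to 394 normalized counts in WT and 53.7 to 2029 in Chd8L+/-, with Col1a2, Col3a1, Lum and Pdgfra at 0 in at least 1 library. Macrophage markers were higher for 8 of 9 (3 unadjusted), at 1204 to 3114 in WT and 1723 to 3741 in Chd8L+/-. Lymphocyte markers were lower for 7 of 8 (1 unadjusted), at 2011 to 4110 and 1469 to 3022. Erythroid markers (2 of 3 higher) summed to 238 to 1957 and 408 to 3712, and endothelial markers (2 of 3 higher) to 60.4 to 123 and 55.5 to 148.

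Within the epithelium, enterocyte markers were lower for 8 of 9 (1 unadjusted), at 350530 to 747596 in WT and 294191 to 670433 in Chd8L+/-, and epithelial markers for 5 of 6 (1 unadjusted). Proximal small intestine markers were lower for 7 of 8 (2 unadjusted), at 74657 to 143429 and 34704 to 127392. Distal markers were lower for 5 of 7 (0 unadjusted), at 59110 to 117349 and 47220 to 164413, and colon markers for 3 of 8 (1 unadjusted lower and 1 higher).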
